A study of Mus musculus with 4 samples.

Results

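The CatSper genes encode the calcium channel of the sperm tail. All non-control probes whose gene name in the scanner files is Catsper1, Catsper2, Catsper3, Catsper4, Catsperb or Catsperg1 were taken, which gave 10 probes of 6 genes among 56605 probes of 24813 named genes. The rule goes by gene name alone and uses no measured value, although the family was picked with earlier results of these data known. The study measured RNA of 2 mouse lines, GC-2 and GC-1, both labelled as a germ cell line, on 4 one-colour Agilent arrays. There were 2 GC-2 arrays and 2 GC-1 arrays, and the only comparison is GC-2 against GC-1. GC-2, GC-2(spd)ts in full, is a line of spermatocytes immortalised with the large T antigen of SV40 together with a p53 that is temperature-sensitive. GC-1, GC-1(spg) in full, came from spermatogonia of type B and carries the same viral antigen. Both lines are transformed cells grown without testicular neighbours, in the same high-glucose medium with serum, and were collected near confluence with no treatment. Nothing says that the arrays of a line came from separate cultures. The p-values therefore measure only the spread between these RNA samples, which may be technical.

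CatSper is a calcium channel of the sperm flagellum that opens as the cell interior becomes alkaline and the membrane depolarises. Its pore is built from the products of Catsper1, Catsper2, Catsper3 and Catsper4, and auxiliary proteins such as those of Catsperb and Catsperg1 surround it. Calcium entering through it drives hyperactivated swimming, and male mice that lack a pore gene are infertile. In the testis these genes are switched on during meiosis and in spermatids, after the stages from which the lines were made or close to them.

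The 5 probes that could be compared between the lines carry the results below, and the probe of Catsperg1 is added because it is also listed for a paralog. The middle 30 bases, 16 to 45, of each 60-base probe follow, with the match to the polyadenylation signal AATAAA in capitals where the printed bases hold one.
Catsper2 A_66_P125743: tgacagctgtgtccttggacccagcaaaag
Catsper2 A_55_P2007776: cacagaaatatgctcacaaaacatacatgc
Catsper4 A_55_P1994284: ccagtgagaccgtgtgcaccaaaAATAAAc
Catsper4 A_66_P109906: agagaaaagcctatgaactcctgggtcggc
Catsper3 A_52_P246233: ttctggatgacttcagcactagtctctcct
Catsperg1 A_52_P151528: tcttggtgctccttgatacagtgacataca

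Probe positions are given on mm9, as the scanner files state them. The Catsper2 probes lie at chr2:121220135-121220194 and chr2:121218394-121218453 on the minus strand, the second further towards the 3′ end. The Catsper4 probe A_55_P1994284 lies at chr4:133767885-133767944 on the minus strand, from base 1665 of its target transcript. The other compared Catsper4 probe, A_66_P109906, lies near the 5′ end, from base 95 of its target transcript. It spans chr4:133783055-133783203, which is 149 genomic bases for a 60-base probe, so it crosses an intron. The Catsper3 probe lies at chr13:55909439-55909498 on the plus strand, and the Catsperg1 probe at chr7:29982064-29982123 on the minus strand. No annotation on mm9 was used here, so exon and UTR are not given.

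Most of the CatSper probes that stood well clear of the background were Catsper2 and Catsper4 probes. The scanner software marks a spot as well above background when its brightness exceeds that of its surroundings by a set margin. On both GC-2 arrays this held for 3 of 10 CatSper probes, against 56.6% of all probes. On both GC-1 arrays it held for 5 of 10, against 61.8% of all probes. Counted by gene, 2 of 6 were measured in GC-2 and 3 of 6 in GC-1, against 62.5% and 68.5% of all named genes. Catsper1 and Catsperb were well above background on no array. Another flag of the software, for a positive and significant signal, held for 6 of 10 CatSper probes in GC-2 and 7 of 10 in GC-1. The shares of all probes by that flag were 70.8% and 75.5%. In RNA of a whole culture, fewer cells that express a gene and less RNA per cell cannot be told apart.

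**Figure D1:**
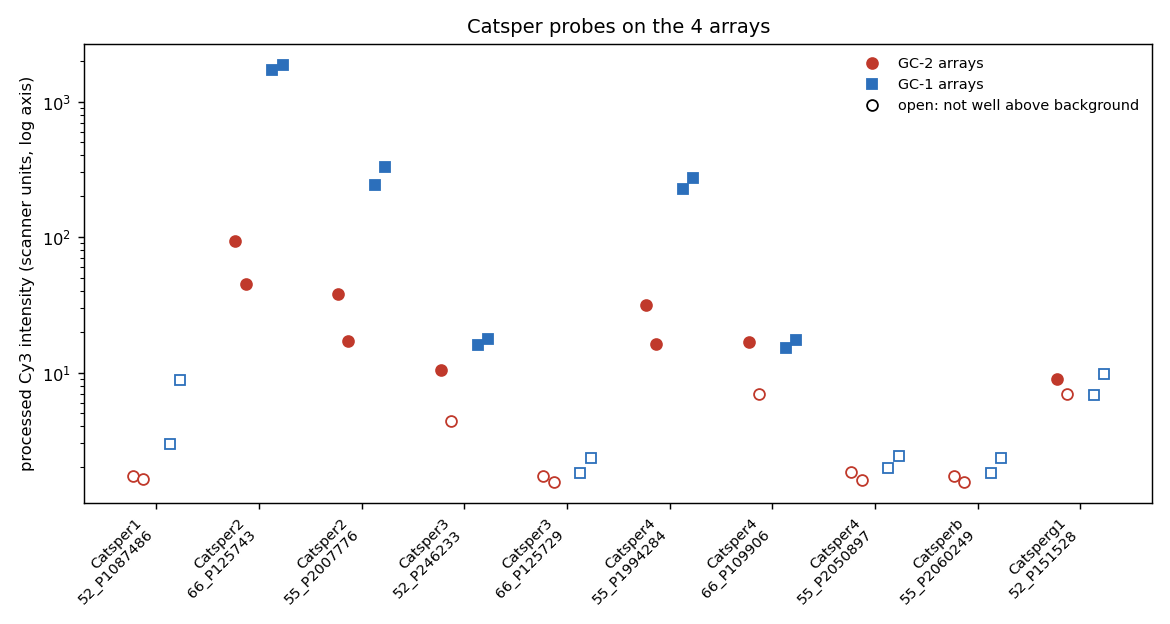
Processed Cy3 intensity in scanner units (log axis) of the 10 CatSper probes, with GC-2 arrays as red circles left of the GC-1 arrays as blue squares; open marks were not well above background. This scale is not adjusted for the dimmer GC-2 arrays, so lower GC-2 marks alone do not show a line difference. Both Catsper2 probes and 1 Catsper4 probe reach over 200 units in GC-1, and the other 7 stay under 18 units on every array.

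The arrays differed in brightness, which bears on every value here. The 75th percentile of the processed intensity was 416 and 199.9 units for the GC-2 samples, against 666 and 693 units for the GC-1 samples. Changes are therefore given as log2 intensity minus the 75th percentile of the same array, called the normalized log2 value. The faintest probe well above background had a normalized log2 value of -5.58 and -4.69 in GC-2 and of -6.19 and -5.92 in GC-1, so a dim transcript was detected less far down in GC-2. The 4 arrays shared 1 slide, GC-2 in its second row and GC-1 in its first, so position and line cannot be told apart. Of 36692 probes compared with limma, 45.7% were past the threshold, an adjusted p under 0.05 after Benjamini-Hochberg adjustment, with 21.6% lower and 24.1% higher in GC-2. Of 17437 genes, each represented by its brightest compared probe, 44.1% were past it, with 25.7% lower and 18.3% higher. The counts of CatSper genes and of the gene lists below that passed are to be read against those shares. Counts of measured genes are to be read against 62.5% of all named genes in GC-2 and 68.5% in GC-1. Of the 24813 named genes, 6253 were well above background on no array.

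Of the 5 CatSper probes compared, 3 fell in GC-2 and 0 rose, 2 of Catsper2 and 1 of Catsper4. Of the 3 genes compared, Catsper2 and Catsper4 fell, and Catsper3 did not pass the threshold. Catsper1, Catsperb and Catsperg1 could not be compared, because no probe of theirs stood well above background on both GC-2 or both GC-1 arrays. The median log2 change of the 3 genes, which is that of the brightest Catsper4 probe, was -2.22, against -0.13 for all genes compared. It was -0.79 with the mean over compared probes, -0.87 with normexp background correction, -0.53 in the authors' deposited table and -4.29 when scaled to spike-in probes. The median of all genes compared was 0.03, 0.14, 0.03 and -2.19 log2 under these settings, in the same order. With 3 genes, 2 calls beside a background of 44.1% are only a description of these genes.

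Catsper2 encodes a pore subunit, and both of its probes fell in GC-2. Its probe A_66_P125743 had an intensity of 94.0 and 45.2 units on the GC-2 arrays and 1707 and 1867 units on the GC-1 arrays. Every GC-2 array lay far below both GC-1 arrays, and the probe was well above background on all 4. The normalized log2 values were -2.15 and -2.15 in GC-2 and 1.36 and 1.43 in GC-1. The change was -3.54 ± 0.23 log2 (SE, n = 2 arrays per line; 95% interval -4.10 to -2.98), which is 11.6-fold lower in GC-2, with an adjusted p of 0.000374 from limma. Among all genes compared, 3.90% had a larger fall.

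The second Catsper2 probe, A_55_P2007776, gave the same direction. It had 37.8 and 17.2 units on the GC-2 arrays and 243 and 331 units on the GC-1 arrays. The lines did not overlap, and all 4 arrays were well above background. Its change was -2.24 ± 0.25 log2 (SE; 95% interval -2.88 to -1.61), 4.73-fold lower in GC-2, with an adjusted p of 0.00194 from limma. The accessions listed for this probe matched no RefSeq gene, and its assignment to Catsper2 rests on the gene name in the scanner files. The log2 difference between the Catsper2 probes, which depends on how each probe hybridises and is read only for its change, was 1.31 and 1.39 in GC-2 and 2.81 and 2.49 in GC-1. An exact two-sided permutation test of that difference gave p = 0.333, the smallest that 2 arrays against 2 allow.

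Catsper4, another pore subunit, fell in GC-2 by its 3′ probe. A_55_P1994284 had 31.3 and 16.2 units on the GC-2 arrays and 225 and 273 units on the GC-1 arrays. It was well above background on all 4 arrays, and both GC-2 values lay below both GC-1 values. The change was -2.22 ± 0.24 log2 (SE, n = 2 arrays per line; 95% interval -2.81 to -1.63), 4.67-fold lower in GC-2, with an adjusted p of 0.00162 from limma. Among all genes compared, 8.32% had a larger fall.

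The 5′ Catsper4 probe did not show that fall. A_66_P109906 had 16.7 and 6.96 units on the GC-2 arrays and 15.1 and 17.4 units on the GC-1 arrays. These values overlap, and all lie near the background: the raw spot brightness was 38.7 and 28.2 units in GC-2 and 39.6 and 42.4 units in GC-1, over a local background of 27.0 and 25.0 units in GC-2 and 29.0 and 28.0 units in GC-1. The probe was well above background on 1 GC-2 array and on both GC-1 arrays. Its change was 0.65 ± 0.24 log2 (SE; 95% interval 0.06 to 1.24) with an adjusted p of 0.0722 from limma, which does not pass the threshold. A further probe inside the gene, A_55_P2050897 at chr4:133781537-133781596, was well above background on no array, at 1.85 and 1.61 units in GC-2 and 1.99 and 2.44 units in GC-1.

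The Catsper4 probes therefore gave no common direction. The log2 difference of the 3′ minus the 5′ probe was 0.91 and 1.22 in GC-2 and 3.90 and 3.98 in GC-1. The change in that difference was -2.87 log2, with an exact two-sided permutation p of 0.333, the smallest this design allows. The RNA was copied from an oligo-dT primer, per the labels, and the scanner files tie the probes to different target transcripts. The part of priming, transcript form or background in the disagreement was not tested. Disagreement between probes was common on these arrays. Of 3419 genes whose brightest compared probe was past the threshold and that had another compared probe, 58.7% had 1 or more other probes not called the same way, and 35.9% had one of opposite sign.

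Catsper3, the pore subunit on chromosome 13, was near the limit of detection in both lines. Its probe A_52_P246233 had 10.4 and 4.38 units on the GC-2 arrays and 15.9 and 17.6 units on the GC-1 arrays. The raw brightness of 33.0 and 26.1 units in GC-2 and 41.4 and 42.8 units in GC-1 stood little above a local background of 24.0 units on both GC-2 arrays and of 27.0 and 24.0 units on the GC-1 arrays. After scaling to the 75th percentile the values were -5.33 and -5.51 in GC-2 and -5.39 and -5.30 in GC-1, which overlap. The change was -0.08 ± 0.23 log2 (SE; 95% interval -0.66 to 0.51), with an adjusted p of 0.809 from limma. The other Catsper3 probe, A_66_P125729, had 1.73 and 1.55 units in GC-2 and 1.81 and 2.36 units in GC-1, and all of these were surrogate values, which the software sets for spots not above background.

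Catsper1, the pore subunit after which the channel is named, was not well above background on any array. Its single probe, A_52_P1087486, spans chr19:5341470-5343899, which is 2430 genomic bases and so more than 1 exon. It had 1.73 and 1.62 units on the GC-2 arrays and 2.96 and 8.83 units on the GC-1 arrays. The highest of these, on a GC-1 array, still lay below the brightest negative control spot of that array, at 15.0 units. Its raw brightness there was 35.6 units over a local background of 21.0 units, and neither GC-1 value was a surrogate value. A faint Catsper1 signal in GC-1 is therefore neither established nor excluded, and the transcript is not shown to be absent from either line.

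The auxiliary subunit genes were at or near the background too. The Catsperb probe, A_55_P2060249 at chr12:102860471-102860530, had 1.73 and 1.56 units in GC-2 and 1.81 and 2.32 units in GC-1, all of them surrogate values. The Catsperg1 probe had 8.98 and 6.88 units in GC-2 and 6.81 and 9.81 units in GC-1. It was well above background on 1 GC-2 array and no GC-1 array, and the lines overlapped in intensity. The accessions listed for it include those of its paralog Catsperg2, so the signal cannot be assigned to 1 of these genes. Neither gene was compared. Their normalized log2 values were higher in GC-2 by 0.92 for Catsperb and 1.18 for Catsperg1, although Catsperb was no brighter in GC-2: the same floor minus a lower 75th percentile gives a higher value.

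How the arrays were scaled moved the dim probes and not the direction of the Catsper2 and 3′ Catsper4 falls. Both Catsper2 probes and the 3′ Catsper4 probe were lower in GC-2 and past the threshold in each of 11 alternative fits. With normexp background correction, which adds an offset, the changes were -2.72 for Catsper2 A_66_P125743, -0.93 for Catsper2 A_55_P2007776 and -0.87 for the 3′ Catsper4 probe. For the last pair limma's adjusted p was 0.0340 and 0.0440. The 8 E1A spike-in probes were higher by 2.07 log2 in GC-2 on the normalized scale. Scaled to them, the changes of the same probes were -5.61, -4.31 and -4.29. Under that scaling Catsper3 (-2.14) and the 5′ Catsper4 probe (-1.42) also fell. However, 29907 of 36692 probes were then lower past the threshold, and the median of all genes compared was -2.19 log2. Neither fall exceeded that median. Under normexp Catsper3 and the 5′ Catsper4 probe were higher in GC-2, at 0.88 and 0.99 log2. So were probes at the floor, such as Catsperb (1.06 log2) and Catsper3 A_66_P125729 (1.02 log2). Catsper3 A_52_P246233 and the 5′ Catsper4 probe thus have no settled direction. Without each array in turn, the changes stayed between -3.58 and -3.50 for Catsper2 A_66_P125743 and between -2.33 and -2.11 for the 3′ Catsper4 probe.

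**Figure D2:**
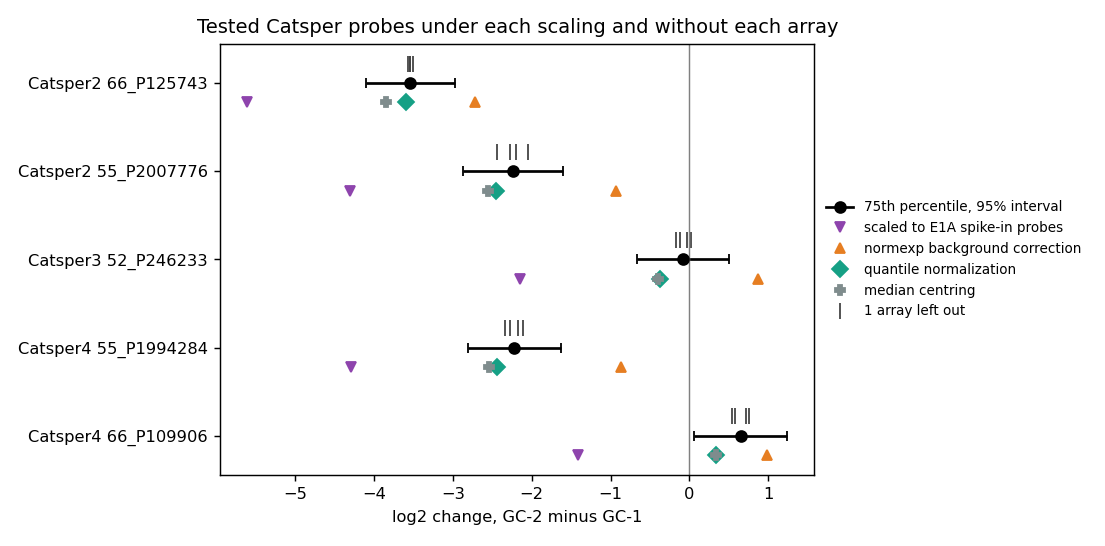
Log2 change, GC-2 minus GC-1, of the 5 compared CatSper probes: black circles with the 95% interval of the fit scaled to the 75th percentile, coloured marks for other scalings and ticks for fits without 1 array. Both Catsper2 probes and the 3′ Catsper4 probe stay left of 0 under each, whereas Catsper3 A_52_P246233 and Catsper4 A_66_P109906 lie on both sides.

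The authors' own series table gave another picture for Catsper4. That table holds 1 log2 value per gene name. Set against the scanner values, 99.2% to 99.4% of the values of genes with several probes lay within 0.02 log2 of the mean over those of the gene's probes that were well above background on that array, or over all its probes where none was, less 1 constant per array. A plain mean over all probes matched 66.3% to 69.6%. For Catsper4 the value then averaged 2 and 1 probes on the GC-2 arrays and 2 and 2 probes on the GC-1 arrays. The authors' deposited table has -3.88 and -3.49 for GC-2 and -3.25 and -3.06 for GC-1, a difference of -0.53 ± 0.24 log2 (SE) with an adjusted p of 0.157 when limma was run on that table. The 5′ probe, which lies near the background, enters 3 of these 4 values.

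For Catsper3 the authors' deposited table averaged 1 and 2 probes in GC-2 and 1 and 1 probe in GC-1. Its value on the second GC-2 array, -6.12, takes in a probe at the floor, while the first GC-2 array has -5.02 and the GC-1 arrays have -5.12 and -5.03. Catsper2 rests on the same 2 probes on all arrays, with -2.50 and -2.70 in GC-2 and 0.22 and 0.45 in GC-1 in the authors' deposited table, and limma gave -2.94 ± 0.22 log2 with an adjusted p of 0.00261. Averaging the compared probes of each gene in place of taking the brightest gave -2.89 ± 0.21 for Catsper2 (adjusted p 0.000487, limma) and -0.79 ± 0.20 for Catsper4 (adjusted p 0.0270, limma).

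**Figure D3:**
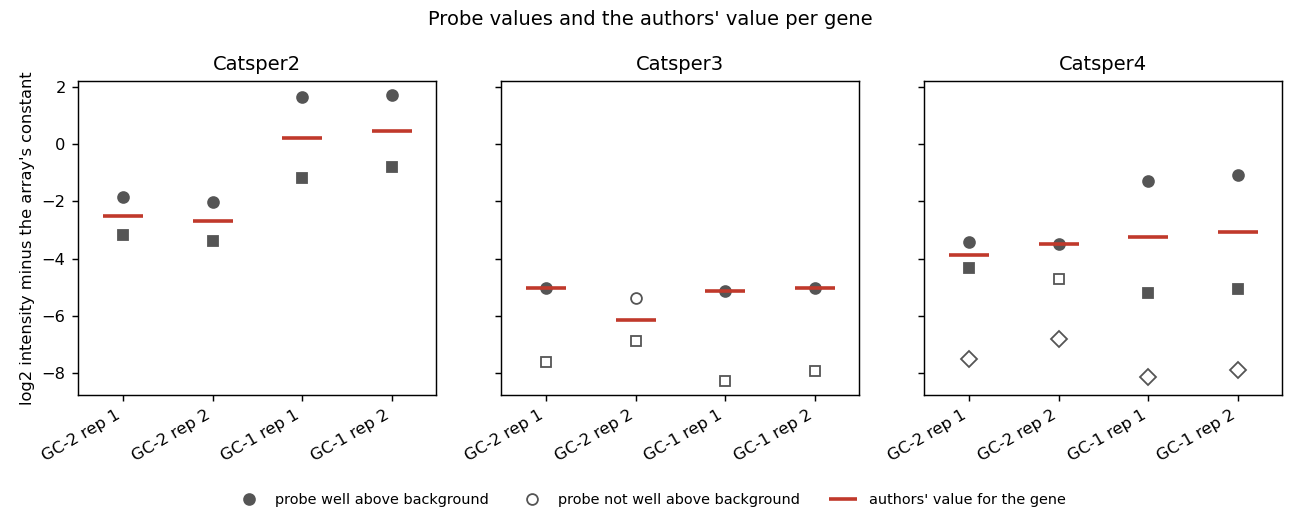
Log2 intensity minus the constant of the array for each probe (grey marks, open where not well above background; marker shape gives the probe) and the authors' value per gene (red bars), GC-2 arrays left of GC-1 arrays. The Catsper4 bars lie between probes that differ, from -3.88 to -3.06, and the Catsper3 bar of GC-2 replicate 2 drops to -6.12, where it averages 2 probes.

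Other proteins of the channel complex were split in direction. Of 10 further genes, all with a probe, 5 were measured in each line and 4 were well above background on no array: Catspere1, Slco6c1, Tmem249 and C2cd6. Of the 5 compared, 1 rose and 2 fell, with a median log2 change of -0.42. Efcab9, the calcium- and pH-sensing partner of the channel, had 38.8 and 19.0 units in GC-2 and 434 and 513 units in GC-1. It fell by 2.88 ± 0.23 log2 (SE; adjusted p 0.000713, limma), with no overlap between the lines. Its second probe, above background on no GC-2 array, did not pass (adjusted p 0.193, limma).

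The brighter probe of Catsperz, whose product pairs with that of Efcab9, had 18.3 and 13.9 units in GC-2 and 106 and 95.1 units in GC-1. The other Catsperz probe was well above background on no array, at 1.75 and 1.56 units in GC-2 and 4.18 and 4.41 units in GC-1. By the brighter probe, Catsperz fell by 1.42 ± 0.31 log2 (SE; adjusted p 0.0151, limma). This call was lost with normexp, where the change was 0.07, and without 3 of the 4 arrays in turn. Catsperd, an auxiliary subunit needed for a stable channel, had 449 and 261 units in GC-2 and 335 and 343 units in GC-1. The intensities overlap, and only relative to the dimmer GC-2 arrays did the gene rise, by 1.25 ± 0.24 log2 (SE; adjusted p 0.00997, limma). Scaled to the E1A probes it was a fall past the threshold instead, at -0.82 log2 (adjusted p 0.0437, limma). The call was lost without GC-1 replicate 1 (adjusted p 0.0506, limma). The other 3 Catsperd probes missed that mark on 1 or both arrays of each line. Tmem262 (-0.23 log2, adjusted p 0.594) and Trim69 (-0.42 log2, adjusted p 0.324) did not pass limma's threshold.

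**Figure D4:**
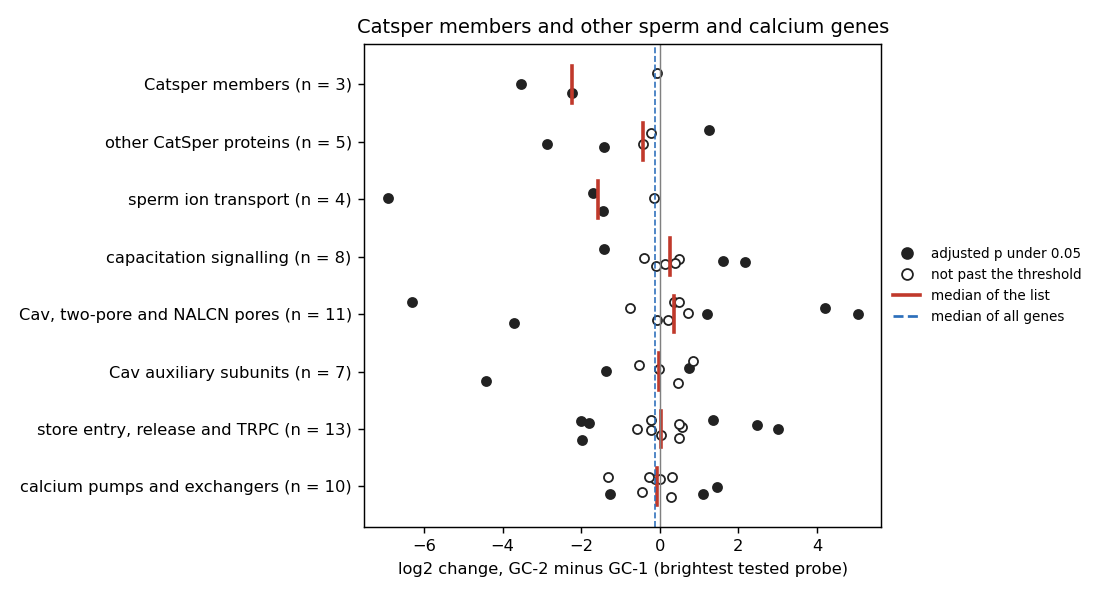
Log2 change, GC-2 minus GC-1, of each compared gene (1 point per gene, filled where limma's adjusted p was under 0.05) in the CatSper family and in lists of other sperm and calcium genes. Red bars mark list medians over the brightest compared probes, which for the CatSper genes rests on 3 genes and moves with the setting, and the dashed line marks the median of all genes, -0.13.

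Genes that act beside CatSper in sperm were read the same way. Of 11 sperm ion transport genes, 3 were measured in GC-2 and 4 in GC-1, and 5 were on no array well above background. Of the 4 compared, 3 fell and 0 rose, beside 25.7% and 18.3% of all genes, with a median log2 change of -1.58. Of these 3 calls, 2 did not hold under other settings, as given below. Kcnu1, the pore of the sperm potassium channel that sets the voltage CatSper senses, had 21.7 and 1.57 units in GC-2 and 1802 and 1539 units in GC-1. It fell by 6.92 ± 0.86 log2 (SE; adjusted p 0.00256, limma) and was well above background on 1 GC-2 array, so the size of the fall is uncertain. The proton channel gene Hvcn1 fell by 1.71 ± 0.30 log2 and the sodium-proton exchanger gene Slc9b2 by 1.46 ± 0.31 log2, but both calls were lost with normexp and without GC-1 replicate 1, and that of Slc9b2 also without GC-2 replicate 1. The hydrolase gene Abhd2 had a change of -0.16 and did not pass the threshold.

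Of 13 capacitation signalling genes, 7 were measured in GC-2 and 8 in GC-1. Of the 8 compared, 2 rose and 1 fell, with a median log2 change of 0.26. Prkaca, a catalytic subunit of protein kinase A, rose by 1.60 ± 0.23 log2 (SE; adjusted p 0.00397, limma), and Cabyr, a calcium-binding protein of the fibrous sheath, rose by 2.17 ± 0.52 log2 (adjusted p 0.0211, limma). Scaled to the E1A probes the changes were -0.47 for Prkaca and 0.10 for Cabyr, and the Cabyr call was lost without either GC-2 replicate. The fibrous sheath gene Akap4 had 3.61 and 2.66 units in GC-2, on no array well above background, and 19.9 and 19.4 units in GC-1. This is at least 1.02-fold brighter in GC-1, set against the lowest detected signal of the GC-2 arrays, with an adjusted p of 0.0124 from limma. The call was lost without either GC-1 replicate, and the change was 0.74 with normexp.

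Markers of spermatids, the cells in which CatSper is normally built, were at low levels in both lines. Of 14 markers, 5 were measured in GC-2 and 7 in GC-1, and Acrv1, Spaca1, Izumo1, Odf1 and Ldhc were well above background on no array. Their intensities summed to 252 and 173 units on the GC-2 arrays and 339 and 349 units on the GC-1 arrays. These sums are not adjusted for the dimmer GC-2 arrays, so they alone do not show a line difference. Of the 7 compared, 2 rose, the protamine gene Prm2 by 1.65 ± 0.30 log2 and Sun5 by 1.18 ± 0.28 log2, and 0 fell. Both rises are smaller than the shift of the E1A probes and would be negative on that scale.

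The label of a germ cell line was set against early germ cell markers. Of 12 markers, 2 were measured in GC-2 and 4 in GC-1, and Dazl, Kit, Mael, Piwil1 and Dmc1 were well above background on no array. Summed intensities, likewise not adjusted, were 293 and 226 units on the GC-2 arrays and 275 and 157 units on the GC-1 arrays. The receptor gene Gfra1 rose by 4.52 ± 0.35 log2, and Spo11, the meiotic break enzyme, was brighter in GC-1 by at least 4.91-fold, with limma's adjusted p at 0.000653 and 0.00277. Marker lists of other testis cell types are given with their sums, which are not scaled between arrays and weigh the brightest members most. Summed intensities of 10 Sertoli markers were 2709 and 1361 units in GC-2 and 184987 and 164938 units in GC-1, with 2 risen, 4 fallen and Amh and Cldn11 on no array well above background. Those of 6 Leydig markers were 5237 and 2929 units in GC-2 and 270 and 301 units in GC-1, with 3 risen, 1 fallen and Hsd3b1 and Lhcgr on no array. The sums of 5 peritubular myoid markers were 12213 and 7237 units in GC-2 and 7282 and 7129 units in GC-1, which overlap, with 2 risen and 0 fallen. Those of 4 macrophage markers were 1948 and 1048 units in GC-2 and 17647 and 11038 units in GC-1, with 1 risen, 1 fallen and Adgre1 on no array. The part of these differences in the CatSper results was not tested.

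Of the measured genes beside Catsper2 and Catsper4, none passed the threshold. In RefSeq (GRCm38.p6), the span of Pdia3, which encodes a protein disulfide isomerase of the endoplasmic reticulum, overlaps that of Catsper2 on the opposite strand. Of the starts used here, 1 for each gene, that of Pdia3 lies 110 bases upstream of that of Catsper2. Pdia3 had 5737 and 2442 units in GC-2 and 7639 and 10632 units in GC-1, a change of -0.03 ± 0.26 log2 (SE) with an adjusted p of 0.932 from limma. Of the genes on either side of the pair, Strc changed by 0.38 and Ell3 by 0.94 log2, and neither passed the threshold. Beside Catsper4, Cnksr1 changed by -0.90 ± 0.47 log2 and did not pass either (adjusted p 0.174, limma), although its 49.2 and 31.9 units in GC-2 lay below its 108 and 280 units in GC-1. Zpld2 was not measured. Whether these genes changed differently from the CatSper gene beside them was not tested.

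The stretch between the starts of Catsper2 and Pdia3 is shown because Catsper2 passed the threshold and Pdia3 did not. It covers chr2:121413793-121413901 (GRCm38.p6, RefSeq) and is given on the minus strand, reading towards Catsper2. Capitals mark matches to the motifs searched on both strands, which were TGACGTCA with the shorter TGACG inside it, the motif AACAAT, the box motif CCAAT, the motif known as TATAAA and the GC-rich GGGCGG. A match on the opposite strand appears as its reverse complement.
Catsper2 to Pdia3: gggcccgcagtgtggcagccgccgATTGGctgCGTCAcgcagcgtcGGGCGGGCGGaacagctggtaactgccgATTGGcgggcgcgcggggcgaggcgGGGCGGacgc

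These 109 bases have a GC content of 77.1% and hold all 6 matches of the 250 bases upstream of Catsper2. There are 3 matches to GGGCGG, of which 2 overlap, 2 to CCAAT and 1 to TGACG. Of 32851 RefSeq windows of the same length, 32.7% hold GGGCGG, 33.8% hold CCAAT and 17.8% hold TGACG. The upstream window of Catsper4, which fell by its 3′ probe only, at chr4:134227384-134227633 on the minus strand, is unlike it.
Catsper4: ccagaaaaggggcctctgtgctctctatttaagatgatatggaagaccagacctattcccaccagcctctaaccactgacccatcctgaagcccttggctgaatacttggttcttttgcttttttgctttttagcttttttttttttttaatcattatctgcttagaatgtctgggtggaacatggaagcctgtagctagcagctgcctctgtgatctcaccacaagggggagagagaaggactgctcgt

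The Catsper4 window has a GC content of 45.2%, against 74.8% for the full Catsper2 window and a median of 52.4% over all windows. It holds none of the searched motifs, which says only that these letters are not in this window. Windows were found for 5 of the 6 genes. Those of Catsper3 hold no match, Catsperb has 1 to AACAAT and 1 to CCAAT, and the windows of Catsperg1 have 1 to TATAAA and 1 to GGGCGG.

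The genes beside the remaining CatSper genes varied. Cst6, a cystatin gene next to Catsper1, rose by 4.25 ± 0.28 log2 (SE; adjusted p 0.000411, limma), with 461 and 187 units in GC-2 and 29.9 and 44.0 units in GC-1, while Gal3st3 on the other side was not measured. Next to Catsper3, 4930451E10Rik rose by 2.13 ± 0.25 log2 (adjusted p 0.00227, limma) and Pitx1 was not measured. Next to Catsperg1, the potassium channel gene Kcnk6 had 1.75 and 1.55 units in GC-2 and 376 and 416 units in GC-1. This probe was well above background on no GC-2 array, so it is brighter in GC-1 by at least 20.5-fold (adjusted p 0.000236, limma). Another Kcnk6 probe was detected on a GC-2 array. Psmd8, a proteasome subunit gene on the other side, changed by 0.19 log2 without passing the threshold. Tc2n beside Catsperb was not measured, and Gm22749 had no probe.

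Over 13445 candidate genes, each detected on every array, the patterns most like those of the CatSper probes were found by the root mean square difference of the 4 centred log2 values. For Catsper2 A_66_P125743 these were Rnf128 (0.08 log2), Tmem37 (0.08 log2) and Tec (0.08 log2). For Catsper2 A_55_P2007776 they were Lhx2 (0.02 log2), Tnnt2 (0.04 log2) and Bicc1 (0.05 log2). For the 3′ Catsper4 probe they were Sdc1 (0.02 log2), Ccdc69 (0.03 log2) and Ap2a1 (0.03 log2). With 4 arrays of 2 lines, such likeness says little more than a line difference of the same size.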

How the data were processed

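Total RNA of 2 GC-2 and 2 GC-1 samples was primed with oligo-dT, amplified and labelled with Cy3, per the labels' protocols. Lines and replicate numbers come from the titles. Per the file headers, Agilent Feature Extraction 11.5.1.1 gave each spot a processed intensity after background subtraction and detrending, with no scaling between arrays. The deposited files also hold flags (a score of 0 or 1) for spots well above background. The authors' series table holds deposited log2 values, 1 per gene name; their scale is a constant per array, genes were not centred, and column medians are -3.64 and -3.53 for GC-2 and -3.78 and -3.67 for GC-1. Direction follows the labels.

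Irregular spots (92 to 224 per array) were removed, no spot was saturated, and spots of a probe were averaged. Log2 processed intensity minus the 75th percentile over 56605 probes was compared with limma 3.58.1 in R 4.3.3 (GC-2 minus GC-1, two-sided, Benjamini-Hochberg over 36692 probes). A probe was compared if both GC-2 or both GC-1 arrays had it well above background; 21 others lacked a value. A gene was read from its brightest compared probe and called measured if a probe was well above background on both arrays. At least N-fold values set the brighter mean against the lowest detected signal per array of the dimmer line, or that of the probe itself where higher. The number of arrays limits precision. The fit was also tested on simulated data.

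Names came from the scanner files and the RefSeq table of GRCm38 (32994 probes by accession, 10224 by symbol, 520 by synonym, and 12867 kept the file's name). The members and gene lists were chosen with earlier results of these data known. Named were all CatSper probes, up to 4 genes per list with the largest changes past the threshold, neighbouring genes, the 3 most similar genes per probe and marker genes. Alternatives were normexp background correction (offset 50), median centring, quantile normalization, E1A scaling, other filters, the authors' table, the mean over probes, a replicate block and leaving out each array. No amino acid sequence was used here.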

Additional observations from a re-analysis of the deposited data

How the results depend on the processing

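The count of 3 CatSper probes past the threshold became 5 with normexp (2 higher, 3 lower) and 5 with E1A scaling (0 higher, 5 lower), and was 3 to 3 without each array. The count of 2 genes became 1 in the authors' table, 3 with normexp (1 higher, 2 lower) and 3 with E1A scaling (0 higher, 3 lower), and was 2 to 2 without each array. Reversed were Catsper3 A_52_P246233 under normexp (0.88 log2, adjusted p 0.0477, limma) and Catsper4 A_66_P109906 under E1A scaling (-1.42 log2, adjusted p 0.00323, limma). The 2 probes higher with normexp were Catsper3 A_52_P246233 and Catsper4 A_66_P109906 (0.99 log2). Probes at the floor had similar values there, such as Catsperb (1.06 log2) and Catsper3 A_66_P125729 (1.02 log2). With E1A scaling the median over all genes, -2.19 log2, was a larger fall than that of Catsper4 A_66_P109906. These calls are therefore not set apart from the general shift under each setting. Over the whole array, 16780 probes passed, 31587 with E1A scaling (1680 higher, 29907 lower) and 10683 to 13569 without each array, the lowest without GC-1 replicate 1. Genes numbered 7682, 15800 with E1A scaling and 4634 to 5981 without each array. The split of 8845 probes higher and 7935 lower became 10684 and 5410 with normexp and 6670 and 10414 with median centring. That of 3192 genes higher and 4490 lower became 3762 and 3699 with normexp and 2273 and 5848 with median centring. The median over all genes, -0.13 log2, was 0.14, -0.44 and -2.19 with normexp, median centring and E1A scaling, and 0.20 without the filter. Of 58 compared genes of the 7 sperm and calcium lists, 26 passed (12 higher, 14 lower), 53 with E1A scaling (3 higher, 50 lower), 24 with normexp (17 higher, 7 lower), 26 with median centring (9 higher, 17 lower) and 15 to 22 without each array, 15 without GC-1 replicate 1. CatSper probes well above background on both arrays numbered 3 of 10 in GC-2 and 5 of 10 in GC-1, against 56.6% and 61.8% of all probes. By the positive-and-significant flag they numbered 6 and 7, against 70.8% and 75.5% of all probes. Above the brightest negative control spot they numbered 5 and 5, against 60.7% of all probes in each line. With the replicate number as a block, 3 CatSper probes, 2 CatSper genes, 17332 probes, 7797 genes and 27 list genes passed. The replicate differences of the lines correlated at 0.12, and with 2 pairs the numbers are not shown to pair the samples. The causes were not tested. Dim probes, near background on every array, limit what can be said of Catsper1, Catsper3, Catsperb and Catsperg1.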

Other observations

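Other calcium genes are given beside the background of 44.1% of all genes past the threshold, 18.3% higher and 25.7% lower. Of 13 genes for voltage-gated, TPC and NALCN pores, relatives of the CatSper pore, 10 were measured in each line and Cacna1d and Cacna1f were well above background on no array. Of the 11 compared, 3 rose and 2 fell in GC-2, with a median log2 change of 0.37. The L-type pore gene Cacna1c had 52.3 and 18.4 units in GC-2 and 2.14 and 2.33 units in GC-1 (on no GC-1 array well above background), which makes it at least 7.16-fold brighter in GC-2. The P/Q-type pore gene Cacna1a rose by 4.21 ± 0.39 log2 (SE), and both were past limma's threshold (adjusted p 0.000234 and 0.00108). The T-type pore gene Cacna1g had 11.0 and 3.14 units in GC-2 and 1194 and 992 units in GC-1, and Tpcn1, an endolysosomal channel gene, fell by 3.72 ± 0.27 log2 (adjusted p 0.000240 and 0.000520, limma).

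Of 8 voltage-gated channel auxiliary genes, 7 were compared, with 1 risen and 2 fallen (median -0.01 log2). Cacna2d1 fell by 4.43 ± 0.32 log2, but of its other compared probes 3 rose and 1 fell. Of 16 store entry, release and TRPC genes with a probe, 13 were compared, with 3 risen and 3 fallen (median 0.03 log2). The ryanodine receptor gene Ryr1 rose by 3.02 ± 0.30 log2 and the store-operated channel gene Orai1 by 2.48 ± 0.28 log2, while Trpc4 also passed with the GC-1 arrays higher (adjusted p 0.0148, limma), a call lost with normexp and without GC-1 replicate 2. No Trpc4 probe was well above background on a GC-2 array, and its GC-1 signal lay too near the detection limit for a fold. Of 11 calcium pump and exchanger genes, 10 were compared, with 2 risen and 1 fallen (median -0.07 log2); the plasma membrane pump gene Atp2b1 fell by 1.27 ± 0.23 log2. Of the 12 rises over the 7 lists, 3 remained past the threshold as rises with E1A scaling, those of Cacna1a, Cacna1c and Ryr1, and 4 became falls. Of the 14 falls, 7 remained past it with normexp, and 4 had the opposite sign without passing.

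The way the authors' deposited table averages probes reaches beyond Catsper4 and Catsper3. Of its 11851 values of genes with several probes, 3812 (32.2%) averaged different probes on different arrays. For the channel subunit gene Catsperd, the authors' deposited table has -2.38 and 0.52 for the GC-2 arrays and -3.15 and -0.75 for the GC-1 arrays, averaging 2 and 1 probes in each line. Its bright probe had 449 and 261 units in GC-2 and 335 and 343 units in GC-1, so the spread between replicates in the table is wider than that of the probe.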
